A study of Homo sapiens with 48 samples.

Results

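The genes described here are NFYA, NFYB and NFYC, which encode the 3 subunits of the transcription factor NF-Y. They were taken by name from a gene table of 19847 entries, together with their 60 annotated splicing events (21 of NFYA, 8 of NFYB and 31 of NFYC). NFYA was chosen by its measured expression, a rise after SF3B1 knockdown in 4OHT-treated cells, so that comparison is given below as values only, for all 3 genes and their events.

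NF-Y binds the CCAAT box, a short element found in the promoters of many genes of cell division, of the endoplasmic reticulum (ER) stress response and of sterol synthesis. NFYB and NFYC pair through histone folds, and the pair then takes up NFYA, which reads the CCAAT sequence. NFYA and NFYC also carry glutamine-rich regions that activate transcription, and NFYA is known in a long form and a short form that differ by a glutamine-rich cassette exon.

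RNA was sequenced from IMR90 cells, a human lung fibroblast line, carrying ER:RAS G12V, a fusion of oncogenic RAS to the hormone-binding part of the estrogen receptor that 4-hydroxytamoxifen (4OHT) switches on. All groups carried the fusion and differed in the drug (DMSO as vehicle, or 4OHT, for 6 days) and in the siRNA then transfected (non-targeting siNT, siSF3B1 or siRBM39), after which cells were kept for 2 days in 0.5% FBS. SF3B1 is a core part of the U2 snRNP, which recognises the branch point, and RBM39 is an RNA-binding splicing factor. Each of the 6 groups held 8 libraries, made from 2 siRNAs with 4 replicates each. All groups came from 1 cell line with a virally delivered fusion and no group without the fusion was sequenced, so an effect of 4OHT itself cannot be told apart from that of RAS activity. For 4 libraries of siNT in 4OHT the title names siNT2 and the treatment label siNT1, which leaves their group unchanged. The title was followed here, so results with siNT1 or siNT2 alone that use 4OHT libraries depend on it.

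Libraries held 31467221 to 52734636 gene counts. SF3B1 stood at 9.14% of its siNT level in DMSO and 8.31% in 4OHT after its siRNAs, and RBM39 at 16.1% and 13.5%. Fibroblast markers were abundant in every library. Summed over 9 genes, they ran from 37172 to 59271 CPM (counts scaled to the library total) in DMSO groups. In 4OHT groups the sum was 11605 to 16539 CPM. The 4 leukocyte markers summed to at most 0.532 CPM. Of 3 endothelial markers, PECAM1 was not found by name in the gene table, and CDH5 and VWF summed to at most 7.98 CPM. Replicate 4 of siRBM39-08 in 4OHT stood apart from its group (standard deviation of log2 CPM around the group mean 0.666, against 0.353 for the next library) and had the highest epithelial marker sum, 59.4 CPM.

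The splicing results turn on the stretches below, read from GRCh37 with exon bases in capitals and intron bases in lower case. The cassette exon of NFYA on chromosome 6 (event HsaEX0042824, chr6:41048550-41048636, plus strand) is coding, 87 bases long at its widest, present in 1 of the 2 annotated transcripts, and 9 of its 29 codons are CAG or CAA, the codons of glutamine.

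NFYA glutamine-rich exon: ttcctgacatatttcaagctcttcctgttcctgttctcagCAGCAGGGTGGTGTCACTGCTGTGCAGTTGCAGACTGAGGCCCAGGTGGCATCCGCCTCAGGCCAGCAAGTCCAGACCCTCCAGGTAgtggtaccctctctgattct

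A downstream NFYA exon (HsaEX0042821, chr6:41057318-41057449, 132 bases, coding, in both transcripts) holds 17 CAG or CAA codons among 44. It is shown because it was skipped with only 1 of the siRNAs against SF3B1 in DMSO, and it was named after its values were seen.

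NFYA downstream exon: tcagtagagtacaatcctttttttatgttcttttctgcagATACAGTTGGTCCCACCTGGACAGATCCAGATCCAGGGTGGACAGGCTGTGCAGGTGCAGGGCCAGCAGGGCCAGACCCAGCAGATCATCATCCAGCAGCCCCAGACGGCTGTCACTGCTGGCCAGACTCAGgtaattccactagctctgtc

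NFYC, on chromosome 1, has 4 annotated 3′ splice sites (acceptors) after the exon ending at position 41235087 (event HsaALTA0005716). The 3 with measured use are shown, each with 24 intron bases before the cut and 6 exon bases after it. The second adds 3 bases to the first, and the third, upstream of both, adds 315 bases.

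NFYC acceptor at 41236384: tctcctctccacccctcgcagcagCTCTAC
NFYC acceptor at 41236381: ctctctcctctccacccctcgcagCAGCTC
NFYC acceptor at 41236069: tcgaattgcttgtgtttgccacagAGGAAC

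The 315-base acceptor has the weaker pyrimidine tract of the last 2: 60% of the 20 bases before its AG are C or T, against 90% for the 3-base acceptor.

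NFYA, the subunit that reads the CCAAT box, was the subunit chosen for its pattern, and its levels are therefore given first as a description. In siNT cells NFYA ran from 51.2 to 60.1 CPM in DMSO (median 55.9) and from 78.0 to 87.4 CPM in 4OHT (median 81.5). After siSF3B1 it ran from 60.3 to 75.8 CPM in DMSO (median 72.1) and from 166 to 186 CPM in 4OHT (median 174.7). After siRBM39 it ran from 47.6 to 61.8 CPM in DMSO (median 51.5) and from 57.0 to 101 CPM in 4OHT (median 90.8). Thus the 8 libraries of siSF3B1 in 4OHT lay above all 40 others, and the 2 DMSO groups of siNT and siRBM39 overlapped at the lower end. In the order of group means, siRBM39 and siNT in 4OHT overlapped, as did siNT and siRBM39 in DMSO, and the other neighbours did not. In the comparison on which NFYA was chosen, it was 2.13-fold higher (log2 fold change 1.09 ± 0.07, standard error), the 253rd highest of 9991 genes tested. Both siRNAs against SF3B1 gave high levels in 4OHT, a mean of 182.1 CPM for siSF3B1-13 and 169 CPM for siSF3B1-16.

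**Figure D1:**
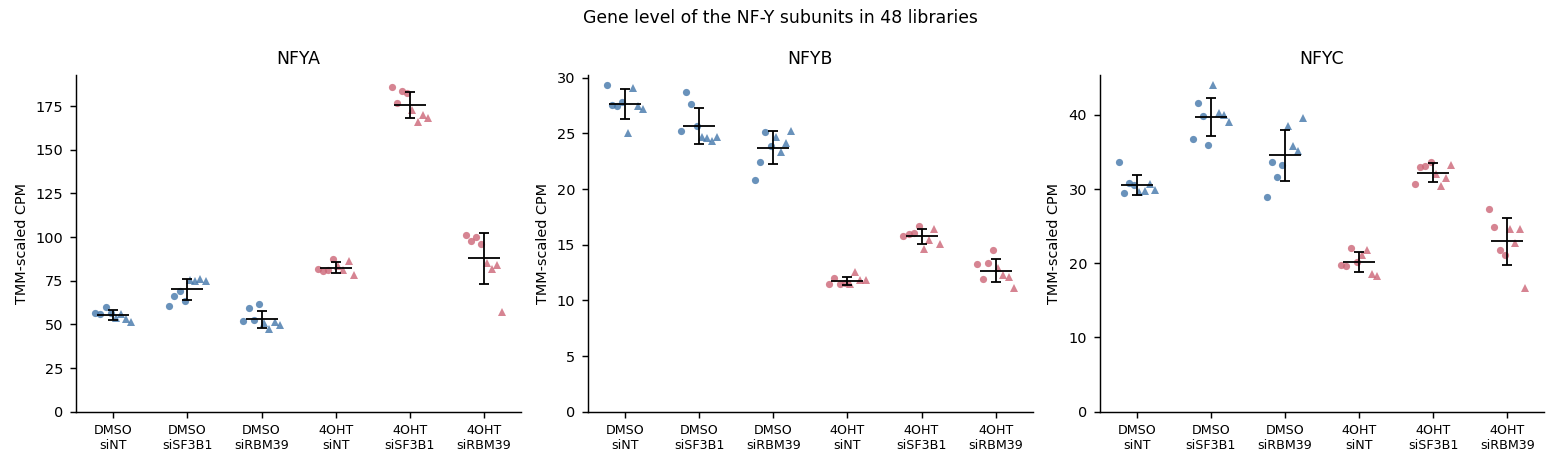
TMM-scaled CPM (y axis) of NFYA, NFYB and NFYC in each of 48 libraries, by group (x axis), with DMSO in blue and 4OHT in red, the first siRNA of each group as circles and the second as triangles, and mean ± SD as bars. NFYA is highest in siSF3B1 in 4OHT (166 to 186 CPM), whereas every 4OHT library lies below every DMSO library for NFYB.

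In DMSO, a comparison the choice did not use, NFYA also rose after siSF3B1, by a log2 fold change of 0.34 ± 0.07 (1.27-fold; adjusted p = 2.13e-05, edgeR quasi-likelihood test with Benjamini-Hochberg adjustment), and the 8 libraries lay above all siNT libraries. In the same comparison 36.5% of the 9991 genes tested were higher and 36.2% were lower, so a call by itself does not set NFYA apart. The 2 siRNAs differed in size, with means of 64.9 CPM (siSF3B1-13) and 75.2 CPM (siSF3B1-16) against 55.4 CPM for siNT. With each siRNA alone the rise passed the test, at log2 0.22 for siSF3B1-13 and 0.43 for siSF3B1-16.

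After siRBM39 in DMSO, where 23.9% of genes were higher and 22.2% lower, NFYA did not pass the test (log2 -0.06, 95% interval -0.20 to 0.08, adjusted p = 0.476). With siRBM39-08 alone it was lower by log2 -0.16 (adjusted p = 0.0326). A direct comparison of the knockdowns in DMSO put NFYA higher after siSF3B1 than after siRBM39, by log2 0.40 ± 0.07 (adjusted p = 1.35e-06), with overlapping groups, in a comparison where 33.6% of genes were higher and 34.1% lower. In 4OHT the values were log2 0.09 for siRBM39 against siNT (0.26 with siRBM39-06 alone and -0.12 with siRBM39-08 alone) and log2 1.00 for siSF3B1 against siRBM39, which are not tested because they share libraries with the choice.

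NFYA was also higher with 4OHT. Among siRBM39 cells it rose by log2 0.73 ± 0.07 from DMSO to 4OHT (1.66-fold, adjusted p = 2.11e-13), with 39.1% of genes higher and 36.4% lower, and 1 library, replicate 4 of siRBM39-08 in 4OHT, lay within the DMSO range. In siNT cells the value was log2 0.57, untested for the same reason. OARD1, a gene on the opposite strand next to NFYA, was lower after siSF3B1 in DMSO (log2 -0.93, adjusted p = 1.11e-14) and in 4OHT against DMSO in siNT (log2 -0.47, adjusted p = 3.48e-07), while NFYA was higher in both. Whether strand was used in counting is not given in the sources used here, so reads of overlapping transcripts cannot be told apart.

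NFYB, a histone-fold subunit, went the other way with 4OHT. In siNT cells its level ran from 25.1 to 29.4 CPM in DMSO (median 27.5) and from 11.4 to 12.5 CPM in 4OHT (median 11.7). It fell by 1.23 on the log2 scale (standard error 0.05, adjusted p = 2.26e-28), to 42.6% of the DMSO level, and the groups did not overlap. In that comparison 38.96% of genes were higher and 39.1% lower. NFYB also fell in siRBM39 cells, by 0.90 on the log2 scale (adjusted p = 5.12e-23). All 24 libraries in 4OHT lay below all 24 in DMSO.

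The SF3B1 effect on NFYB depended on the drug. In DMSO NFYB was slightly lower after siSF3B1 (24.4 to 28.7 CPM, log2 -0.11 ± 0.04, adjusted p = 0.0321), with overlapping groups, and this call was lost when any replicate number was left out or with siSF3B1-13 alone. In 4OHT the libraries ran from 14.6 to 16.7 CPM after siSF3B1 (median 15.9), all above siNT, a value of log2 0.42 in the comparison of the choice. The difference between the SF3B1 effects in 4OHT and in DMSO was log2 0.53 ± 0.06 (adjusted p = 5.62e-09). It is given with the caution that its 4OHT side is the comparison of the choice. Across all genes, 17.9% had a higher and 19.9% a lower effect in 4OHT.

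RBM39 knockdown moved NFYB less. It was lower in DMSO (20.8 to 25.2 CPM, median 24.04, log2 -0.22, adjusted p = 6.63e-05) and higher in 4OHT (11.1 to 14.5 CPM, median 12.6, log2 0.11, adjusted p = 0.0417), with overlap between groups in both. The 4OHT call was lost with limma-voom, with siRBM39-08 alone, without replicate number 1, 3 or 4 and in several other settings. The RBM39 effects in 4OHT and DMSO differed by log2 0.33 ± 0.06 (adjusted p = 2.29e-04), where 7.28% of genes had a higher and 6.87% a lower effect in 4OHT. Directly compared, NFYB was higher after siSF3B1 than after siRBM39, by log2 0.31 in 4OHT (adjusted p = 5.63e-08) and log2 0.11 in DMSO (adjusted p = 0.0220), the latter lost with siSF3B1-16 and siRBM39-08 alone and without replicate number 1, 2 or 3.

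NFYC, the histone-fold partner of NFYB, went down with 4OHT and up with SF3B1 loss. In siNT cells it ran from 29.5 to 33.6 CPM in DMSO (median 30.2) and from 18.3 to 22.02 CPM in 4OHT (median 19.98). It fell by 0.60 on the log2 scale with 4OHT (adjusted p = 6.0e-12) and, in siRBM39 cells, by 0.59 (adjusted p = 8.68e-12), without overlap between drug groups in either. After siSF3B1 it ran from 35.9 to 44.1 CPM in DMSO (median 39.9), above all siNT libraries (log2 0.38 ± 0.06, adjusted p = 5.6e-07). In 4OHT it ran from 30.5 to 33.7 CPM after siSF3B1 (median 32.5), again above all siNT libraries, with a value of log2 0.67 in the comparison of the choice.

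The rise of NFYC after siSF3B1 was larger in 4OHT than in DMSO by log2 0.30 ± 0.09 (adjusted p = 0.00619), again with the comparison of the choice on its 4OHT side, and the call was lost with siSF3B1-16 alone (log2 0.22). After siRBM39 NFYC was higher by log2 0.18 in DMSO (28.9 to 39.5 CPM, adjusted p = 0.0161) and by log2 0.19 in 4OHT (16.7 to 27.3 CPM, adjusted p = 0.0105), and both pairs of groups overlapped. In DMSO only siRBM39-08 alone kept the call (log2 0.28, against 0.06 for siRBM39-06), and in 4OHT only siRBM39-06 alone kept it (log2 0.24, against 0.12 for siRBM39-08). The DMSO call was lost without replicate number 2 or 3 and the 4OHT call without replicate number 1, 2 or 3. In siRBM39 against siNT in 4OHT 32.2% of all genes were higher and 24.3% lower. NFYC was higher after siSF3B1 than after siRBM39 in 4OHT (log2 0.49, adjusted p = 2.13e-09), where 33.7% of genes were higher and 37.7% lower, and in DMSO (log2 0.20, adjusted p = 0.00402).

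**Figure D2:**
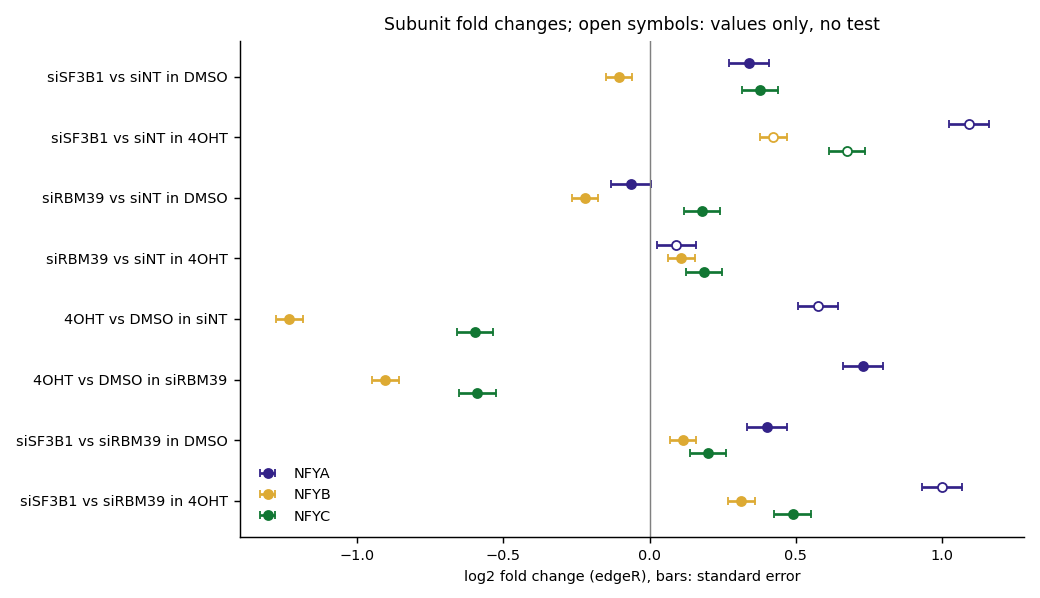
Log2 fold changes of the 3 subunits (x axis, points) with standard errors (bars) in 8 comparisons (y axis), where filled points were tested and open points are values only. NFYA lies to the right and NFYB and NFYC to the left of 0 in both comparisons of 4OHT with DMSO.

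On a scale per length (cRPKM, reads scaled by library depth and by the mappable length of the gene), the subunits changed order with the drug. In siNT cells in DMSO NFYC had the highest mean level (20.8 ± 0.83 cRPKM, SD, n = 8), followed by NFYA (14.9 ± 0.71) and NFYB (8.11 ± 0.37). In siNT cells in 4OHT NFYA came before NFYC and NFYB (22.1 ± 0.82, 13.7 ± 0.92 and 3.44 ± 0.11 cRPKM). The first order held in all 3 DMSO groups and the second in all 3 4OHT groups, and the only neighbours that overlapped were NFYA and NFYC in siRBM39 in 4OHT. The ratio of NFYA to NFYB levels per library had a mean of 1.84 in siNT in DMSO and 6.43 in siNT in 4OHT. After siSF3B1 in 4OHT it reached 10.2 (range 9.45 to 10.8), and after siRBM39 in 4OHT it was 6.33 (range 4.71 to 7.49). These RNA levels do not measure how much of the complex was assembled, and in bulk samples fewer cells of a type and less RNA per cell cannot be told apart. The fibroblast marker list moved with the drug as well: 8 of its 9 genes were lower in 4OHT against DMSO in siNT (median log2 -2.09), and its part in the subunit levels was not tested.

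Splicing was measured as PSI, the percent of reads that include an exon, retain an intron or use a given splice site. Most events of the subunits barely moved: of 48 with a PSI in every library and without a repeated site, 37 had group means within 5 points of each other, 14 stayed at 95 or more and 21 at 5 or less in all groups. Only 4 events, all of NFYC, passed the coverage, range and balance filters of the main fit (13839 events). Without the coverage minimum, a fit added after seeing the data, 30 subunit events and 70235 events in all could be tested. Calls were made with limma on logit PSI and needed an adjusted p under 0.05 together with group means at least 5 PSI points apart.

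The NFYA glutamine-rich exon was included in nearly all transcripts in DMSO and less often in 4OHT. Every siNT library in DMSO had a PSI of 100, and the 8 in 4OHT ran from 87.5 to 100 (median 92.2, mean 93.6 ± 4.41 SD). PSI fell by 6.41 points, which was called in the fit without a coverage minimum (adjusted p = 0.0223, limma) and had a two-sided exact permutation p = 0.00699 over 12870 assignments. With siNT1 or siNT2 alone the differences were -6.16 and -6.67 points (exact permutation p = 0.143 for each). Without replicate number 1, 3 or 4 the exact permutation p was 0.0606 for each. In these subsets all libraries below 100 were in 4OHT, and with the others equal at 100 the test could give no smaller p. It could not pass there, so it does not show whether the fall was stable. Without replicate number 3 the difference was -4.97 points, under the 5-point minimum. The exon was the only subunit event called in this comparison (1 of 30), against 0.256% of all events. In the main fit, which did not hold this exon, 0 of 4 subunit events were called and 0 had an unadjusted p under 0.05, with 0.882% of all events called.

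With SF3B1 also lost, the exon was used least. In siSF3B1 in 4OHT PSI ran from 61.7 to 94.5 (median 74.4), with means of 66.8 for siSF3B1-13 and 81.5 for siSF3B1-16. The difference from siNT in 4OHT was -19.4 points, a value from the comparison of the choice and so untested. Set against siRBM39 in 4OHT (84.0 to 100, median 93.7), the difference was -17.9 points (adjusted p = 0.00308, fit without a coverage minimum; exact permutation p = 0.00155), and the groups overlapped. With siSF3B1-16 and siRBM39-08 alone it was -9.35 points and did not pass (exact permutation p = 0.143). RBM39 knockdown in 4OHT gave a difference of -1.48 points from siNT (exact permutation p = 0.573). In DMSO 7 of 8 siSF3B1 libraries and 7 of 8 siRBM39 libraries were at 100, with mean differences from siNT of -0.875 and -0.768 points (exact permutation p = 1 for both). With only 1 library below 100 in each comparison, this p was fixed in advance. The median library had 26.5 to 74.0 reads on this exon, depending on the group.

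**Figure D3:**
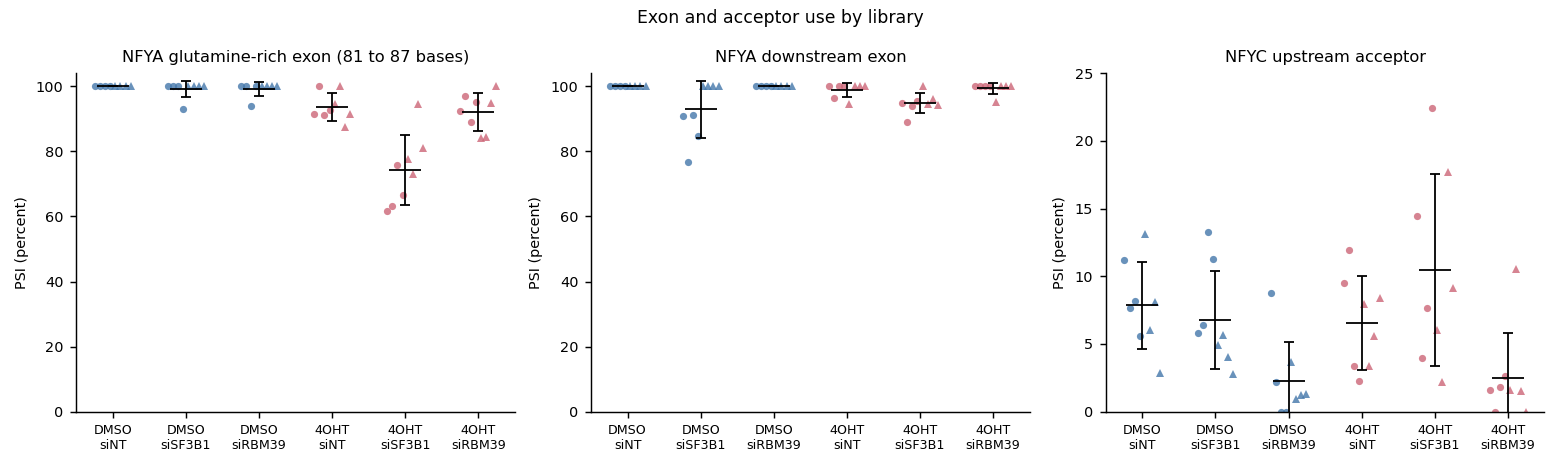
PSI in percent (y axis) of the NFYA glutamine-rich exon, the NFYA exon of 132 bases and the NFYC acceptor that adds 315 bases, by library and group (x axis), with the first siRNA as circles, the second as triangles and mean ± SD as bars. The first panel shows all siNT libraries in DMSO at 100 and siSF3B1 in 4OHT down to 61.7, and the y axis of the last panel ends at 25.

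Splitting the NFYA level of each library by PSI gives its 2 forms as a description. The level of transcripts with the exon had means of 14.9 cRPKM (siNT, DMSO), 20.6 (siNT, 4OHT) and 32.9 (siSF3B1, 4OHT). The level without it was 0 in every siNT library in DMSO, 0 to 2.91 cRPKM in siNT in 4OHT (mean 1.43) and 2.40 to 17.7 cRPKM in siSF3B1 in 4OHT (mean 11.5). In siRBM39 in 4OHT it was 0 to 3.55 cRPKM (mean 1.87). Both forms were therefore higher on average in siSF3B1 in 4OHT than in the other groups, the form with the exon in all 8 libraries. The split uses the NFYA level for which the gene was chosen, so these higher values are not independent of the choice.

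**Figure D4:**
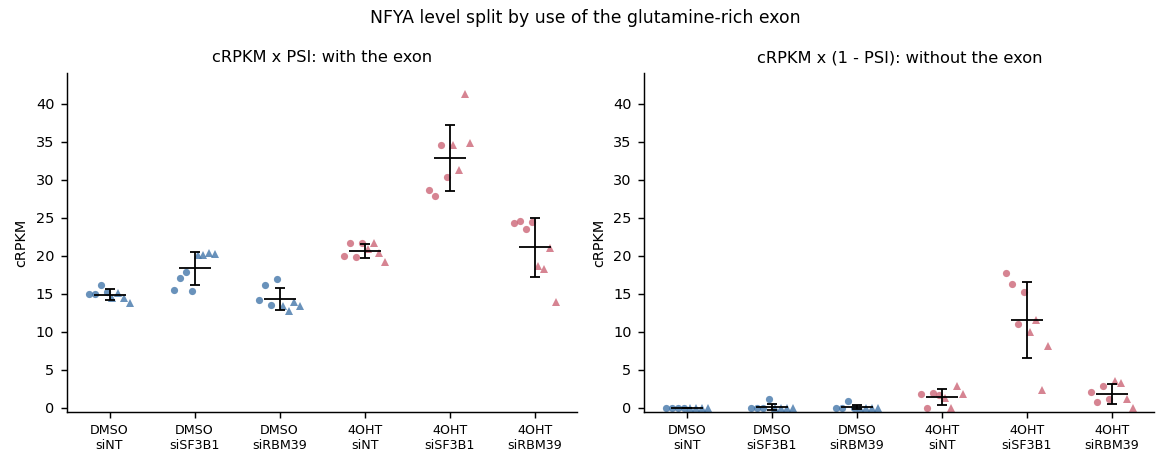
NFYA level in cRPKM (y axis) with and without the glutamine-rich exon, obtained as cRPKM times PSI and cRPKM times the rest, for each library by group (x axis), with mean ± SD. The form with the exon lies at 27.9 to 41.3 cRPKM and the form without it at 2.40 to 17.7 cRPKM in siSF3B1 in 4OHT.

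The 132-base NFYA exon separated the siRNAs against SF3B1 in DMSO. All siNT and siRBM39 libraries in DMSO and all 4 of siSF3B1-16 had a PSI of 100, whereas the 4 of siSF3B1-13 ran from 76.7 to 91.1 (mean 85.8). Pooled, siSF3B1 in DMSO differed from siNT by -7.08 points, which limma called without the coverage minimum (adjusted p = 0.00741). The exact permutation test over libraries gave p = 0.0769. With only those 4 libraries below 100 this was the smallest p it could give, so it could not pass. The exon was the only 1 of 30 subunit events called, 7 had an unadjusted p under 0.05, and 14.8% of all events were called. The main fit called 0 of 4 subunit events in this comparison, with 1 at an unadjusted p under 0.05 and 19.8% of all events called. In 4OHT PSI ran from 89.1 to 100 after siSF3B1 (median 94.7), and the siRNAs overlapped. It was 89.1 to 95.5 with siSF3B1-13 and 94.3 to 100 with siSF3B1-16. The difference from siRBM39 in 4OHT (median 100) was -4.61 points (exact permutation p = 0.00389), below the 5-point minimum. With siSF3B1-16 and siRBM39-08 alone it was -2.50 points (exact permutation p = 0.257).

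The NFYC acceptor that adds 315 bases was used less after RBM39 knockdown. In DMSO its PSI ran from 2.86 to 13.1 in siNT (median 7.89) and from 0 to 8.76 in siRBM39 (median 1.25, raised to 8.76 by 1 library). PSI fell by 5.60 points, which was called (adjusted p = 0.00328, limma, and exact permutation p = 0.00404), 1 of 4 subunit events against 5.66% of all events, or 1 of 30 against 3.38% without the coverage minimum. The call was lost without replicate number 3 and with siNT2 alone. In 4OHT it fell from a mean of 6.55 to 2.46, by 4.09 points, under the minimum difference. There the 3-base acceptor next to it was called instead, at a mean PSI of 96.2 after siRBM39 against 88.9 in siNT (adjusted p = 0.0111, limma, and exact permutation p = 0.00715), 1 of 4 events against 6.27%, or 1 of 30 against 3.87%. This call was lost without replicate number 1 or 2 and with siRBM39-08, siNT1 or siNT2 alone. Both acceptors compete for the same donor, so their PSI values are not independent, and a library had a median of 12 to 34.5 reads on the set, by group.

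Set against RBM39 loss, SF3B1 loss left more of the 315-base acceptor. Against siNT, the difference after siSF3B1 was -1.09 points in DMSO and was not called (adjusted p = 0.709, limma). In 4OHT it was 3.89 points, untested as the comparison of the choice. Between the knockdowns in 4OHT, PSI of this acceptor was 2.16 to 22.4 after siSF3B1 (median 8.39) and 0 to 10.5 after siRBM39 (median 1.58). The difference was 7.98 points (adjusted p = 2.87e-04, limma, and exact permutation p = 0.0104). The 3-base acceptor differed by -8.03 points there (adjusted p = 0.00529; exact permutation p = 0.0274). Without replicate number 1 only 1 of these calls was left. These 2 of 4 events compare with 20.03% of all events, and 3 of 30 with 15.3% without the coverage minimum. In DMSO the 3-base acceptor differed by -6.005 points (adjusted p = 0.0147, limma, and exact permutation p = 0.0124), 1 of 4 events against 17.5%, or 2 of 30, with the 132-base NFYA exon, against 12.1%. The acceptor call was lost without replicate number 2, 3 or 4, and with siSF3B1-16 and siRBM39-08 alone (-3.36 points). No subunit event had coverage of LOW or better, the next level of the read score, in every library together with a PSI range of 5 points, so none of these calls could be tested at that depth.

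Other events had no call. The NFYC exon of 57 bases (HsaEX0042835, coding, chr1:41232590-41232646) had mean PSI values of 9.63 in siNT and 12.3 in siSF3B1 in DMSO. In 4OHT, the comparison of the choice, they were 11.6 and 3.62. Between siSF3B1 and siRBM39 in 4OHT the difference was -6.91 points (exact permutation p = 0.0239, not adjusted for the number of events). The exact permutation p was 0.0571 with siSF3B1-13 and siRBM39-06 alone, and 0.343 with siSF3B1-16 and siRBM39-08 alone. The NFYC exon of 135 bases (HsaEX0042829) had a mean of 6.54 in siNT in DMSO and 0.469 in siNT in 4OHT (exact permutation p = 0.0443, not adjusted for the number of events). An acceptor of NFYA that adds 3 bases to the glutamine-rich exon (HsaALTA0005715) varied widely, with group means from 45.4 to 60.1. Among the largest differences of each gene in the comparison of the choice were also an NFYC intron (HsaINT0113316, mean 31.3 after siSF3B1 in 4OHT and 0 in siNT), an NFYB intron (HsaINT0113305, 3.57 and 12.4) and an NFYB exon (HsaEX6068774, 93.9 and 100). The mean of the NFYC intron rested on 2 libraries of siSF3B1-16 at a PSI of 100 from 2 reads each, with 8.43 for siSF3B1-13 and 54.2 for siSF3B1-16. Both introns had few reads and lacked a PSI in some libraries.

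Genes described as NF-Y targets were taken from lists chosen with earlier results of these data known. In RefSeq promoters of GRCh38.p14 (250 bases before to 50 after the start), the letters CCAAT or their reverse complement ATTGG occurred in 34.6% of 35116 promoters. They occurred in 13 of 17 promoters of 10 cell cycle genes, 12 of 14 of 10 ER stress genes and 3 of 5 of 4 sterol genes. The cell cycle and ER stress genes were listed because CCAAT boxes had been described in them, and the sterol genes because NF-Y acts there. A share above that of all promoters was therefore built into these lists. Some promoters counted are overlapping entries of the same gene. The letters occurred in 3 of 3 promoters of NFYC, and NFYB had no entry. In the 1 promoter of NFYA the only match was ATTGG at position 45, after the start. Examples from each list and from NFYC are shown with the motif in capitals and its place relative to the start. They are matches of letters only, and binding of NF-Y was not measured.

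CCNB1 at -87 (chr5:69166900-69167199, plus strand): ccggcagccgCCAATgggaagggag
TOP2A at -53 (chr17:40417847-40418146, minus strand): cgagtcagggATTGGctggtctgct
HSPA5 at -99 (chr9:125241294-125241593, minus strand): gtggcctgggCCAATgaacggcctc
FDPS at -122 (chr1:155308616-155308915, plus strand): cggccagcagCCAATcagcgcggct
NFYC at -98 (chr1:40691454-40691753, plus strand): tcgccccttcCCAATtctcgcgaga

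Most tested cell cycle genes were lower with SF3B1 loss and with 4OHT. The list held 12 genes, of which 8 passed the count filter and were tested. That filter summed counts over all 48 libraries, including the groups where these genes were high. After siSF3B1 in DMSO 7 of 8 tested genes fell and 0 rose (median log2 -1.23, against 0.02 over all genes, of which 36.2% were lower). They included TOP2A, which untangles DNA (log2 -3.14 ± 0.18, adjusted p = 2.06e-20), and CCNA2, cyclin A2 (log2 -1.85 ± 0.12, adjusted p = 6.04e-19). With 4OHT in siNT cells, where 39.1% of all genes were lower, 7 of 8 fell (median log2 -2.19), among them BIRC5, the survivin gene (log2 -2.84), and CCNB2, cyclin B2 (log2 -2.55), while the mitotic kinase AURKA rose (log2 0.49, adjusted p = 2.17e-05). After siRBM39 in DMSO 0 of 8 passed the test in either direction with edgeR (median log2 -0.13). Of the subunits, NFYA and NFYC rose after siSF3B1 in DMSO (log2 0.34 and 0.38). NFYB was slightly lower there (log2 -0.11), a call lost when any replicate number was left out. In the comparison of the choice the median of the list was log2 -0.69, with no test.

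Sterol genes fell with SF3B1 loss. In DMSO 8 of 8 fell, against 36.2% of all genes (median log2 -0.72), led by FDPS, which makes farnesyl diphosphate (log2 -1.37 ± 0.07, adjusted p = 1.43e-21), and including INSIG1, a sterol-sensing regulator (log2 -1.17 ± 0.11, adjusted p = 1.4e-13). After siRBM39 in DMSO 3 of 8 fell, FDPS by 0.51 on the log2 scale, and 0 rose, against 22.2% of all genes lower and 23.9% higher. With 4OHT in siNT 4 rose, among them FDFT1, squalene synthase, by log2 0.26 and FDPS by log2 0.21, and 1 fell, HMGCS1 by 0.24 on the log2 scale, against 38.96% of all genes higher and 39.1% lower. SREBF1 and SREBF2, the factors that act beside NF-Y on these genes, fell as well after siSF3B1 in DMSO, by 1.52 and 0.66 on the log2 scale.

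ER stress genes split in direction. After siSF3B1 in DMSO, where 36.5% of all genes were higher and 36.2% lower, 2 of 10 rose, DDIT3, a stress-induced transcription factor (log2 0.75), and PDIA4, a protein disulfide isomerase (log2 0.39), and 2 fell, the chaperone HYOU1 (log2 -1.11) and the transcription factor XBP1 (log2 -0.29). After siRBM39 in DMSO (23.9% of all genes higher, 22.2% lower) 4 rose and 2 fell, from SDF2L1 (log2 0.85) and HSP90B1 (log2 0.36) to HERPUD1 (log2 -0.37) and HYOU1 (log2 -0.29). With 4OHT in siNT (38.96% higher, 39.1% lower) 6 rose and 3 fell, from SDF2L1 (log2 1.24) and PDIA4 (log2 0.74) to DDIT3 (log2 -1.84) and HERPUD1 (log2 -0.68). HSPA5, the main ER chaperone, stood at log2 0.03 after siSF3B1 in DMSO and rose by log2 0.24 with 4OHT (adjusted p = 0.0285).

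**Figure D5:**
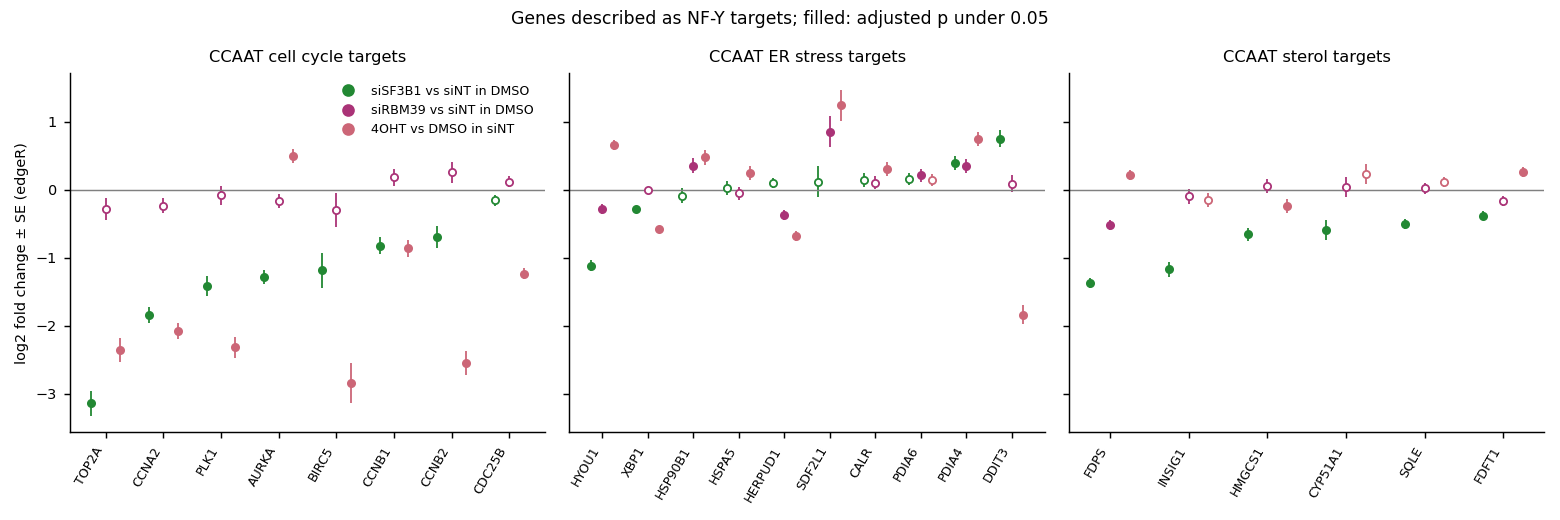
Log2 fold change ± standard error (y axis) of genes described as NF-Y targets (x axis) in siSF3B1 and siRBM39 against siNT in DMSO and in 4OHT against DMSO in siNT, with filled points at an adjusted p under 0.05. All 6 sterol genes shown and 7 of 8 cell cycle genes are filled and below 0 for siSF3B1 in DMSO.

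Of 16 listed factors that bind beside NF-Y, 12 were tested. After siSF3B1 in DMSO 3 of these rose and 5 fell, against 36.5% of all genes higher and 36.2% lower. Besides the SREBF genes, RFX5, which joins NF-Y on MHC class II promoters, fell by 1.09 on the log2 scale (adjusted p = 9.34e-16), and the E-box factor USF1 (log2 0.37) and LIN37 of the DREAM complex (log2 0.33) rose. After siRBM39 in DMSO (23.9% and 22.2% of all genes) 2 rose and 4 fell, USF2 at log2 0.37, LIN37 at 0.30, SREBF2 at -0.39 and SREBF1 at -0.37. With 4OHT in siNT (38.96% and 39.1%) 2 rose and 6 fell, LIN37 at log2 0.59, USF1 at 0.35, SREBF1 at -0.58 and LIN54 at -0.46.

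Of 5 other genes with histone folds related to NFYB and NFYC, 2 rose after siSF3B1 in DMSO, DR1 (log2 0.33) and POLE3 (log2 0.28), and 0 fell, against 36.5% of all genes higher and 36.2% lower. After siRBM39 in DMSO CHRAC1 (log2 -0.26) and DR1 (log2 -0.21) fell and 0 rose, against 22.2% of all genes lower and 23.9% higher. With 4OHT in siNT 3 rose, led by POLE3 (log2 0.89) and DRAP1 (log2 0.42), and CHRAC1 fell (log2 -0.20), against 38.96% of all genes higher and 39.1% lower. Unlike NFYB and NFYC, both of which fell with 4OHT, this list had a median of log2 0.19 there.

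Over the 48 libraries, the patterns most like that of NFYA (Pearson r of log2 CPM) were those of ETV3 (0.97), ETS2 (0.97) and UBAP1 (0.96). Those most like NFYB were PDGFD and ARID5B (each 0.98), and those most like NFYC were EXT1, CTSC and ZRANB1 (each 0.95). Between subunits r was 0.80 for NFYB with NFYC, -0.54 for NFYA with NFYB and -0.10 for NFYA with NFYC. These libraries share 6 group means, so the values describe the groups' pattern and carry no test.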

How the data were processed

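Per the labels and the study's methods, the authors ran vast-tools version 2 on mRNA libraries against an hg19 event annotation. The authors deposited gene counts, cRPKM (an RPKM corrected by vast-tools for mappable length) and PSI in percent with read scores, all of which were used. A further deposited table of scaled CPM was not used. Which strand setting was used in counting is not given in the sources used here.

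Genes with at least 10000 counts over 48 libraries (9991) were tested with edgeR 4.0.16 (TMM, quasi-likelihood, R 4.3.3), a mean for each of 6 groups and Benjamini-Hochberg adjustment. Event PSI was tested with limma 3.58.1 on the logit of 0.01 + 0.98 × PSI/100, for events whose coverage reached VLOW in each library and whose PSI spanned 5 points or more, leaving out introns with a balance p under 0.05. Single events also had two-sided exact permutation tests, whose smallest p for 8 against 8 is 0.000155. Where several libraries share the same PSI, as at 100, the smallest possible p can be larger. Alternatives were limma-voom, DESeq2 1.42.0, limma on log2(cRPKM + 0.1), other filters and subsets of libraries. Scripts were tested on simulated data.

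The members, lists and tests were chosen with earlier results of these data known. Events were named if called, if they were cassette exons between 5 and 95 PSI in a group, or if among the 2 largest differences of their gene in siSF3B1 against siNT in 4OHT; list genes were the 2 largest rises and falls. Further genes are named after their values were seen, to illustrate a list, and some that the rules name are not reported here. The labels do not say whether replicates were separate cultures, so p-values measure the spread between libraries.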

Additional observations from a re-analysis of the deposited data

Results flagged for a closer look

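In 44 groups of 8 libraries examined for a library far from its group by Dixon's test, 7 had one. The chance rate of about 1 in 20 groups does not hold for 3 of the 7, exons at a PSI of 100 in the other 7 libraries of the group, where any single lower library is picked out by construction. Replicate 4 of siRBM39-08 in 4OHT, the library that stood apart over all genes, was lowest in NFYA at 57.0 CPM. Replicate 1 of siNT1 in DMSO was highest in NFYC at 33.6 CPM. For the NFYA glutamine-rich exon, replicate 4 of siSF3B1-13 in DMSO had a PSI of 93.0 and replicate 3 of siRBM39-06 in DMSO a PSI of 93.9, with all others of their groups at 100. For the 132-base NFYA exon, replicate 1 of siRBM39-08 in 4OHT had a PSI of 95.1. For the NFYC acceptor that adds 315 bases, replicate 1 of siRBM39-06 in DMSO had a PSI of 8.76. For the NFYC exon of 135 bases, replicate 3 of siSF3B1-13 in 4OHT had a PSI of 12.02.

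The effects of knockdown differed between 4OHT and DMSO by a test of the difference for NFYB after siSF3B1 (log2 0.53), NFYC after siSF3B1 (log2 0.30) and NFYB after siRBM39 (log2 0.33). For siSF3B1 the 4OHT side of this difference is the comparison of the choice, so these tests are given with caution. The NFYC call was also lost with siSF3B1-16 alone.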

How the results depend on the processing

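The larger subunit differences kept their direction and call in every setting: the falls of NFYB and NFYC and the rise of NFYA with 4OHT where tested, and NFYA and NFYC after siSF3B1 in DMSO. Small differences did not. NFYB after siSF3B1 in DMSO (log2 -0.11) lost its call at log2 -0.050 with a minimum of 1 count, -0.072 with 5 counts in each library, -0.054 with siSF3B1-13, -0.13 with siNT1 and -0.091 with siNT2 only, and ran from -0.11 to -0.10 with a replicate number left out. NFYC after siRBM39 in DMSO lost it at 0.059 with siRBM39-06, 0.15 with siNT1 and 0.20 with siNT2 only (0.14 to 0.21 with a replicate number left out, the call lost without 2 or 3). NFYB after siRBM39 in 4OHT lost it at 0.11 with limma-voom, 0.10 with a minimum of 1 count, 0.021 with siRBM39-08, 0.10 with siNT1 and 0.093 with siNT2 only, 0.084 with only the groups compared and 0.064 on cRPKM (0.055 to 0.15, lost without 1, 3 or 4). NFYC after siRBM39 in 4OHT lost it at 0.12 with siRBM39-08 and 0.15 with siNT1 only, 0.16 with only the groups compared and 0.14 on cRPKM (0.10 to 0.25, lost without 1, 2 or 3). NFYB in siSF3B1 against siRBM39 in DMSO lost it at 0.0036 with siSF3B1-16 and siRBM39-08 only, 0.11 with siNT1 only, 0.10 with only the groups compared and 0.070 on cRPKM (0.0805 to 0.14, lost without 1, 2 or 3), and NFYC there at 0.13 with siSF3B1-16 and siRBM39-08. The NFYC difference between SF3B1 effects lost it at 0.24 with a minimum of 1 count, 0.22 with siSF3B1-16, and 0.29 with either siNT1 or siNT2 only. NFYA after siRBM39 in DMSO gained a call at -0.16 with siRBM39-08. Of untested values, NFYA after siRBM39 in 4OHT was 0.26 with siRBM39-06 and -0.12 with siRBM39-08, its difference between SF3B1 effects 0.92 with siSF3B1-13 and 0.58 with siSF3B1-16, and NFYB after siSF3B1 in 4OHT 0.33 on cRPKM. The cause was not tested, beyond the smaller number of libraries in the subsets. Leaving out replicate 4 of siRBM39-08 in 4OHT changed no subunit call, but 25.01% of genes instead of 14.1% then had an RBM39 effect that differed between 4OHT and DMSO, and this share ran from 5.37% with siNT1 only to 45.7% with siSF3B1-13 and siRBM39-06 only.

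Called subunit events in siSF3B1 against siNT in DMSO numbered 0, and 1 with no coverage minimum or no minimum difference. In siRBM39 against siNT in DMSO there was 1, and 0 with siNT2 only or a minimum of 10 points (0 to 1 with a replicate number left out). In 4OHT there was 1, and 0 with siRBM39-08, siNT1 or siNT2 only or 10 points, and 2 with no minimum (0 to 1). With 4OHT in siNT there was 0, and 1 with no coverage minimum. In siSF3B1 against siRBM39 in DMSO there was 1, and 0 with siSF3B1-16 and siRBM39-08 or 10 points, 2 with siSF3B1-13 and siRBM39-06 or no coverage minimum, and 3 with no minimum difference (0 to 2). In 4OHT there were 2, and 0 with siSF3B1-16 and siRBM39-08 or 10 points, and 3 with no coverage minimum or no minimum difference (1 to 2). With coverage of LOW in each library, or a plain logit of PSI from 1 to 99, no subunit event was left to test. The low read numbers on these events limit all of these counts.

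Replicate numbers showed no pairing on average. Deviations from the mean of each siRNA and drug had a mean correlation of 0.01 between libraries of the same number (-0.90 to 0.79). For different numbers it was -0.002 (-0.89 to 0.93). A replicate block changed no subunit call (NFYA after siSF3B1 in DMSO log2 0.34, adjusted p = 3.61e-05 with edgeR).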
